A study of Urocitellus parryii with 44 samples.

Results

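The enzymes of the malate-aspartate and glycerophosphate shuttles, which carry the electrons of cytosolic NADH to the mitochondrion, were measured in brown adipose tissue of arctic ground squirrels. The members were chosen by name: every probe with the single gene symbol Mdh1, Mdh2, Got1, Got2, Gpd1 or Gpd2. All 6 genes were present, with 23 of the 38400 probes of the study, and 22 of these 23 could be tested, among 37848 tested probes. Total RNA of 5 squirrels in winter torpor and 3 summer active squirrels taken in August was labelled with 33P and hybridised to 4 membranes of mouse cDNA probes, MA07, MA08, MA10 and MA11. The RNA of torpid animal 5 and of summer animals 1 and 2 was split and measured in duplicate, and the duplicates were averaged to 1 animal. In torpor a hibernating animal lets its metabolic rate and body temperature drop far below those of its active life. Season and activity state differ together between the groups, so that their parts cannot be told apart. The labels give no age or sex, and the RNA of each animal was measured on its own, on each of the 4 membranes. The mouse sequences are probes for squirrel RNA, and the gene names are those of the mouse annotation. The RefSeq gene table of the squirrel lists each of the 6 names once, as a protein-coding gene.

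The inner mitochondrial membrane does not let NADH through, so cells move its electrons by shuttles. In the malate-aspartate shuttle, cytosolic malate dehydrogenase (Mdh1) uses NADH to turn oxaloacetate into malate, which enters the mitochondrion and is oxidised there by Mdh2. The aspartate aminotransferases Got1 in the cytosol and Got2 in the mitochondrion return the carbon skeleton as aspartate. In the glycerophosphate shuttle, cytosolic Gpd1 uses NADH to make glycerol 3-phosphate, and Gpd2, on the outer face of the inner membrane, oxidises it and passes the electrons to ubiquinone. Brown fat of rodents is known for a high activity of this second shuttle, and glycerol 3-phosphate is also the backbone of triacylglycerol.

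Values are the log2 of the deposited intensity over the median of its column, so that 0 is the median spot of a membrane and 1 step is a doubling. Levels of different probes are not compared, since each spot binds squirrel RNA with its own strength. Intensities of the whole tissue cannot show whether a transcript was lower because fewer cells made it or because each cell held less of it. Across all tested probes, 117 passed an adjusted p of 0.05 by limma, which is 0.309% of them, with 0.259% higher and 0.0502% lower in torpor. No probe of the 6 genes passed, while 7 of the 22 had an unadjusted p under 0.05. Of these 7, 5 had higher and 2 lower values in torpor, against a background of 6.39% higher and 5.18% lower over all tested probes. Of the 5 higher probes, 4 were probes of 1 gene, Mdh1. Over the 17 probes of the other genes, 1 (5.88%) was higher and 2 (11.8%) were lower. The median difference of the 22 probes, torpor minus summer, was 0.05, and that of all tested probes was 0.0001. Positive values were seen in 13 of the 22 and in 50.01% of all, and in 10 and 11 of the 22 after quantile normalization and cyclic loess.

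Mdh1, the cytosolic malate dehydrogenase, had positive differences by all 5 of its probes, from 0.75 to 1.51 on the log2 scale. Its brightest probe, number 2566 on MA07, gave log2 levels of 3.38, 2.98, 2.46, 3.08 and 2.79 in torpid animals 1 to 5, against 1.81, 0.74 and 1.76 in summer animals 1 to 3. Every torpid animal lay above every summer animal, and in linear terms the torpid animals stood at 5.52 to 10.4 times the column median and the summer animals at 1.67 to 3.51 times. The means were 2.94 ± 0.34 (SD, n = 5) in torpor and 1.43 ± 0.61 (SD, n = 3) in summer, a difference of 1.51 ± 0.29 (SE), or 2.84-fold, with a 95% interval by limma from 0.86 to 2.15. The limma adjusted p was 0.074 over all 37848 probes (unadjusted p = 0.00038), so that it missed the threshold and ranked 194th of all.

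The second MA07 probe of Mdh1, number 5087 and with another sequence accession, gave log2 levels of 2.32, 1.77, 1.76, 3.09 and 2.10 in torpor, against 0.74, 0.95 and 1.37 in summer. The groups were again separate, and torpid animal 4 was the highest. The difference was 1.19 ± 0.31 (SE; limma adjusted p = 0.18). On MA11, probe 5 gave 2.49, 1.90, 1.29, 3.23 and 2.01 in torpor, against 1.03, 0.61 and 1.04 in summer. Here torpid animal 4 was highest too, the groups did not overlap, and the difference was 1.29 ± 0.37 (SE; limma adjusted p = 0.20). A position of every torpid animal above every summer animal, which 3 of the 5 Mdh1 probes had, was found in 4.37% of all tested probes.

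Both MA10 probes of Mdh1 overlapped between the groups. Probe 153 gave log2 levels of 3.28, 3.48, 3.34, 4.14 and 2.43 in torpor, against 2.63, 1.37 and 1.98 in summer, so that torpid animal 5 lay below summer animal 1. The difference was 1.34 ± 0.44 (SE; limma adjusted p = 0.23). Its value in summer animal 2 rests on duplicates that disagreed, at 0.828 and 8.03 times the column median. With the first duplicates alone the difference was 1.99, and with the second alone 0.69. Probe 8926 has the same accession, and so the same clone, as probe 5 on MA11 and gave 1.46, 3.32, 2.85, 2.71 and 1.94 in torpor, against 2.88, 0.94 and 1.31 in summer. Summer animal 1 stood among the torpid animals, and the difference was 0.75 ± 0.50 (SE; limma adjusted p = 0.59). Its duplicates in summer animal 1 stood at 4.55 and 11.8 times the column median. Without summer animal 1 this difference was 1.33, and without summer animal 2 it was 0.36.

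**Figure D1:**
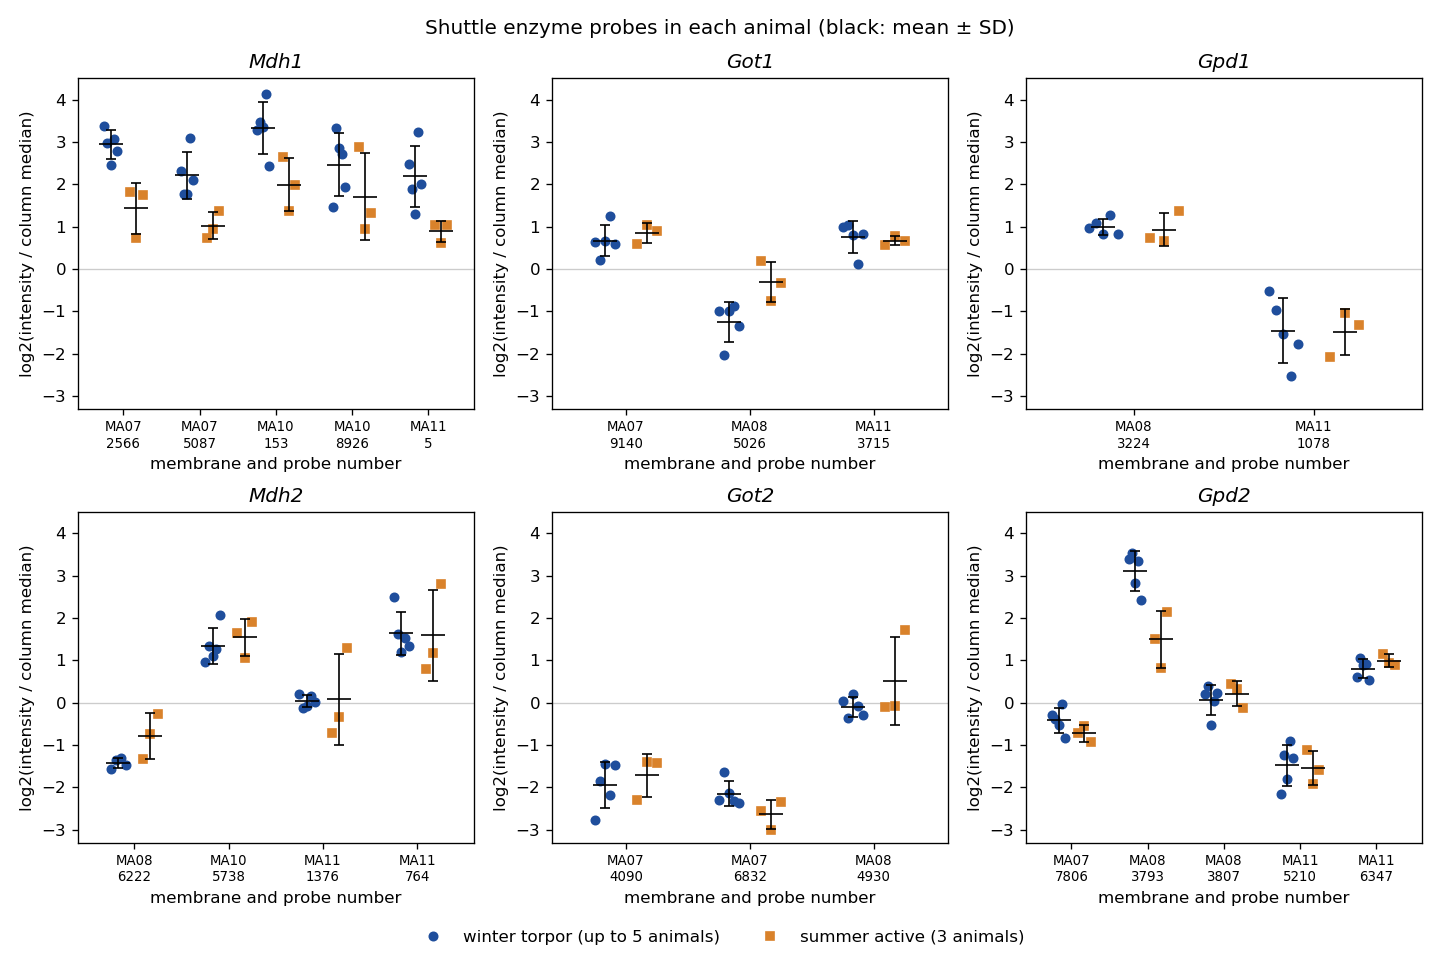
Each panel is a gene, cytosolic enzymes above and mitochondrial ones below, with log2 intensity over the column median on the vertical axis and its tested probes on the horizontal axis. Circles are torpid and squares summer animals, and black bars give the mean ± SD. The torpid animals lie above the summer animals for 3 Mdh1 probes and for Gpd2 probe 3793, and below them for Got1 probe 5026. Such positions were found in 4.37% (above) and 4.13% (below) of all tested probes.

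When the 5 Mdh1 probes were each centred on their mean over the 8 animals and then averaged, the torpid animals stood at 0.42, 0.52, 0.17, 1.08 and 0.09, against -0.35, -1.25 and -0.68 in the summer animals. The means were 0.46 ± 0.39 (SD, n = 5) in torpor and -0.76 ± 0.46 (SD, n = 3) in summer. Torpid animal 4 was the highest of all 8 and summer animal 2 the lowest. No difference of an Mdh1 probe changed sign when any 1 animal was left out. Without summer animal 1, probe 2566 passed the threshold, at 1.69 (limma adjusted p = 0.049), and without summer animal 2 its difference was 1.16. Probe 2566 also passed when probes below the 25th percentile of signal were left out before the test (limma adjusted p = 0.046 over 28757 probes). More probes passed over the whole study in these 2 fits, 347 without summer animal 1 and 238 without dim probes, against 117 in the main fit.

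All 5 Mdh1 probes were bright, between percentile 87.2 and 96.5 of mean signal on their membranes, and bright probes as a whole were shifted towards torpor. Over the 5758 tested probes at percentile 85 or above, a limit chosen after the Mdh1 values were seen, the median difference was 0.235 and 63.63% were positive. Every torpid animal lay above every summer animal in 10.02% of these bright probes. After cyclic loess scaling, which removes a shift that depends on brightness, the Mdh1 differences ran from 0.69 to 1.32, with 1.07 for probe 2566 (limma adjusted p = 0.16).

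Mdh2, the mitochondrial malate dehydrogenase that also serves the tricarboxylic acid cycle, gave differences from -0.64 to 0.04 by its 4 probes. The brightest, number 764 on MA11, gave log2 levels of 2.498, 1.62, 1.21, 1.52 and 1.33 in torpor, against 0.80, 1.17 and 2.81 in summer. Summer animal 3 was the highest of the 8 and summer animals 1 and 2 the lowest, so that the groups overlapped. The difference was 0.04 ± 0.43 (SE), with a 95% interval by limma from -0.89 to 0.97 and an adjusted p of 0.98, and it turned to -0.27 with quantile normalization and -0.28 with cyclic loess. Another MA11 probe, number 1376, gave 0.20, -0.11, -0.09, 0.17 and 0.02 in torpor, against -0.72, -0.34 and 1.30 in summer. Its torpid animals lay close together, and summer animal 3 again lay above them all and the other summer animals below. The difference was -0.04 (limma adjusted p = 0.98). Without summer animal 3 these differences were 0.65 for probe 764 and 0.56 for probe 1376, with limma adjusted p of at least 0.51 among all fits that left out 1 animal.

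On MA10, Mdh2 probe 5738 gave 0.95, 1.33, 1.11, 1.26 and 2.07 in torpor, against 1.66, 1.05 and 1.92 in summer. The difference was -0.20, with a 95% interval by limma from -1.02 to 0.63. The dim MA08 probe 6222, at percentile 10.4, gave -1.55, -1.36, -1.30 and -1.47 in 4 torpid animals, against -1.33, -0.75 and -0.26 in summer. Torpid animal 2 had no value there and was left out of this fit. The difference was -0.64 ± 0.27 (SE; limma unadjusted p = 0.036, adjusted p = 0.39). It carries the same clone as probe 1376 on MA11, which stood at percentile 52.1 and gave -0.04. In summer animal 3 all 4 Mdh2 probes were at the highest level of the summer group.

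Got1 encodes the cytosolic aspartate aminotransferase, and its brighter probes gave differences near 0. Probe 9140 on MA07 gave log2 levels of 0.63, 0.22, 0.66, 1.25 and 0.58 in torpor, against 0.59, 1.05 and 0.89 in summer. The groups overlapped, and the difference was -0.18, with a 95% interval by limma from -0.70 to 0.35. Probe 3715 on MA11 gave 1.003, 1.03, 0.81, 0.12 and 0.82 in torpor, against 0.57, 0.78 and 0.65 in summer. Apart from torpid animal 4 the torpid animals lay above the summer animals, and the difference was 0.09, with an interval from -0.46 to 0.65, and -0.0074 after quantile normalization. The third probe, number 5026 on MA08, holds the same clone as probe 3715 but was dim there, at percentile 15.6 against 71.7. It gave -0.99, -2.04, -0.999, -0.88 and -1.34 in torpor, against 0.18, -0.75 and -0.34 in summer. Every torpid animal lay below every summer animal, as in 4.13% of all tested probes. The difference was -0.95 ± 0.30 (SE), with a limma unadjusted p of 0.0095 and an adjusted p of 0.26. One clone thus gave -0.95 on one membrane and 0.09 on another.

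Got2, the mitochondrial aspartate aminotransferase, had 4 probes, of which number 3051 on MA10 was empty in every animal. The brightest of the other three, number 4930 on MA08, gave 0.04, -0.36, 0.21, -0.08 and -0.28 in torpor, against -0.10, -0.07 and 1.71 in summer. Summer animal 3 stood far above the rest, which lay between -0.36 and 0.21. The difference was -0.61 ± 0.38 (SE; limma adjusted p = 0.57), and without summer animal 3 it was -0.01. Both MA07 probes were dim, at percentiles 11.9 and 7.30. Probe 4090 ran from -2.77 to -1.44 in torpor, against -2.29 to -1.40 in summer, and gave a difference of -0.23. Probe 6832 ran from -2.36 to -1.64 in torpor, against -3.00 to -2.33 in summer, and gave 0.48 (limma adjusted p = 0.46). The 3 Got2 probes thus pointed both ways, and none of them had separate groups.

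**Figure D2:**
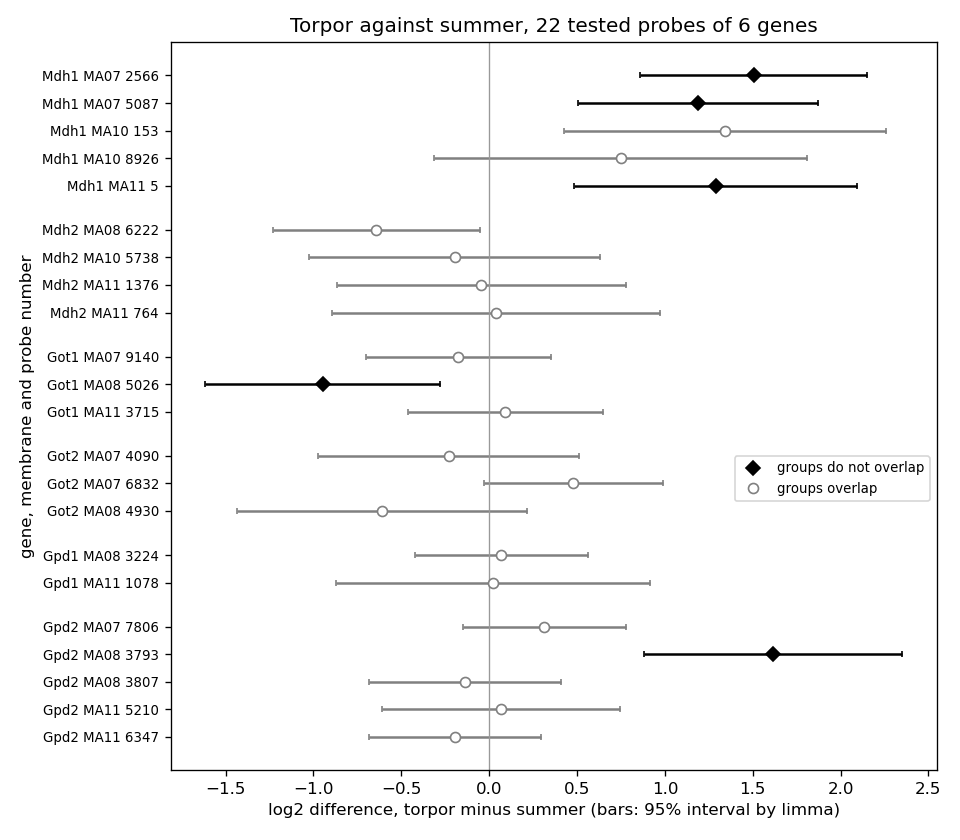
Log2 differences of the 22 tested probes, torpor minus summer, on the horizontal axis, with bars for the 95% interval by limma and 1 line per probe. Filled diamonds mark the 5 probes whose groups did not overlap. Over all tested probes, 4.37% had separate groups with torpor above and 4.13% with torpor below. All 5 Mdh1 probes lie right of 0, while the Gpd2 probes lie near 0 except 3793 on MA08, at 1.62.

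Gpd1, the cytosolic glycerol 3-phosphate dehydrogenase, gave differences close to 0 by both probes, and that of its brighter probe turned to -0.033 with cyclic loess. Probe 3224 on MA08, at percentile 81.9, gave log2 levels of 0.96, 1.08, 0.83, 1.28 and 0.82 in torpor, against 0.74, 0.66 and 1.37 in summer. The torpid animals lay between summer animals 1 and 2 below and summer animal 3 above. The means were 0.99 in torpor and 0.92 in summer, a difference of 0.07 ± 0.22 (SE), with a 95% interval by limma from -0.42 to 0.56. The dim MA11 probe 1078, at percentile 12.8, ran from -2.52 to -0.51 in torpor, against -2.08 to -1.04 in summer. Its difference was 0.02, with an interval from -0.87 to 0.91.

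Gpd2, the mitochondrial glycerol 3-phosphate dehydrogenase, held the largest difference among the 22 probes and also 4 probes near 0. Probe 3793 on MA08 gave log2 levels of 3.40, 3.53, 2.83, 3.35 and 2.42 in torpor, against 1.50, 0.83 and 2.16 in summer. The groups were separate, with torpid animal 5 nearest to summer animal 3, and in linear terms they stood at 5.37 to 11.6 times the column median in torpor and 1.78 to 4.45 times in summer. The means were 3.11 ± 0.47 (SD, n = 5) in torpor and 1.49 ± 0.66 (SD, n = 3) in summer. This gave a difference of 1.62 ± 0.33 (SE), or 3.06-fold, with a 95% interval by limma from 0.88 to 2.35 and an adjusted p of 0.083 (unadjusted p = 0.00049). Its duplicates differed by at most 0.35 on the log2 scale. The threshold was passed without summer animal 3, at 1.95 (limma adjusted p = 0.039), and when probes below the 25th percentile were left out (limma adjusted p = 0.047). Over the whole study 162 and 238 probes passed in these fits, against 117 in the main fit. Probe 3793 too was bright, at percentile 95.6, and gave 1.29 after cyclic loess (limma adjusted p = 0.20). Separate groups with torpor above were found in 4.37% of all tested probes and in 10.02% of those at percentile 85 or above.

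The other Gpd2 probes gave differences from -0.19 to 0.31. Probe 6347 on MA11, at percentile 75.4, gave 0.60, 1.07, 0.89, 0.92 and 0.54 in torpor, against 1.16, 0.95 and 0.88 in summer. Both groups covered much the same range, and the difference was -0.19, with a 95% interval by limma from -0.68 to 0.29. Probe 3807, on the same membrane as 3793 and with another accession, gave 0.21, 0.40, -0.52, 0.04 and 0.24 in torpor, against 0.44, 0.32 and -0.12 in summer. Its difference was -0.14, with an interval from -0.68 to 0.41, which does not reach the value of probe 3793. Probe 7806 on MA07 gave 0.31 and the dim probe 5210 on MA11 gave 0.07, with intervals of -0.15 to 0.78 and -0.61 to 0.74. The 5 Gpd2 probes have 5 different accessions, and a single one carried the difference.

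**Figure D3:**
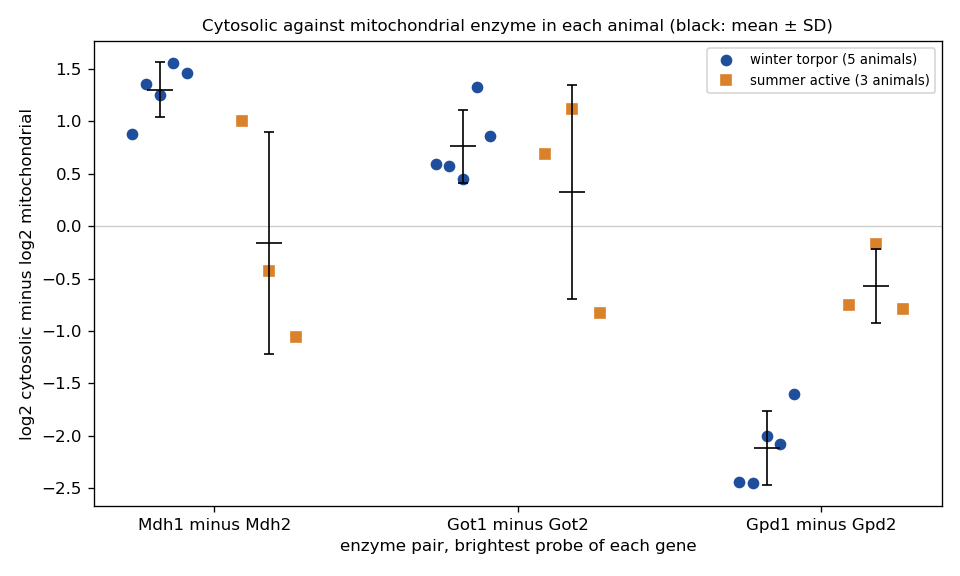
For each pair of enzymes, the log2 value of the cytosolic gene minus that of the mitochondrial gene is shown on the vertical axis for every animal, by the brightest probe of each gene. Circles are torpid and squares summer animals, and black bars give the mean ± SD. The pair Gpd1 and Gpd2 shows separate groups, and the summer animals spread widely in the pairs of Mdh and Got.

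Whether the cytosolic and mitochondrial enzyme of a pair differed in how they changed was tested per animal, by the brightest probe of each gene. The test was an exact two-sided permutation of the 56 arrangements of the 8 animals, whose smallest p is 0.018. The probes of Mdh1 (MA07) and Mdh2 (MA11) lay on different membranes, as did those of Got1 (MA07) and Got2 (MA08). Those of Gpd1 and Gpd2 shared MA08. The Mdh1 probe was brighter than that of Mdh2 (percentile 96.5 against 86.5), and the Gpd2 probe brighter than that of Gpd1 (95.6 against 81.9). For Mdh1 minus Mdh2 the torpid animals stood at 0.88, 1.36, 1.25, 1.56 and 1.46, against 1.01, -0.43 and -1.06 in the summer animals. Summer animal 1 lay within the torpid range. The shift was 1.46 on the log2 scale, at an exact p of 0.036 and 0.054 after adjustment over the 3 pairs. For Gpd1 minus Gpd2 the torpid animals stood at -2.45, -2.45, -2.004, -2.08 and -1.60, against -0.76, -0.17 and -0.79 in the summer animals. The groups were separate, and the shift was -1.55, with an exact p of 0.018 and an adjusted p of 0.054. Got1 minus Got2 gave 0.59, 0.58, 0.45, 1.33 and 0.86 in torpor, against 0.69, 1.12 and -0.83 in summer, a shift of 0.43 (exact p = 0.46, adjusted p = 0.46). No pair passed an adjusted p of 0.05 with all animals and averaged duplicates. The design sets this limit in part, since 1 pair alone at the smallest possible exact p is still at an adjusted p of 0.054, and Gpd1 minus Gpd2 was at that smallest p. Without torpid animal 1, Mdh1 minus Mdh2 (1.57) and Gpd1 minus Gpd2 (-1.46) both passed (exact permutation, adjusted p = 0.043). In the other 7 fits that left out 1 animal neither pair passed, at exact adjusted p of 0.071 to 0.14. These fits have fewer arrangements than 56, so that their smallest possible p is higher. Without a summer animal, both pairs at that smallest p would still be at an exact adjusted p of 0.071. Those fits could not pass unless all 3 pairs were at the smallest p, and so they cannot decide. With the mean over all probes of a gene, the shift was 1.42 for Mdh1 minus Mdh2, but -0.29 for Gpd1 minus Gpd2 and -0.22 for Got1 minus Got2 (exact adjusted p = 0.054, 0.46 and 0.46). With the probe of median difference it was 1.49 for Mdh1 minus Mdh2 and -0.045 for Gpd1 minus Gpd2 (exact adjusted p = 0.16 and 0.93).

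**Figure D4:**
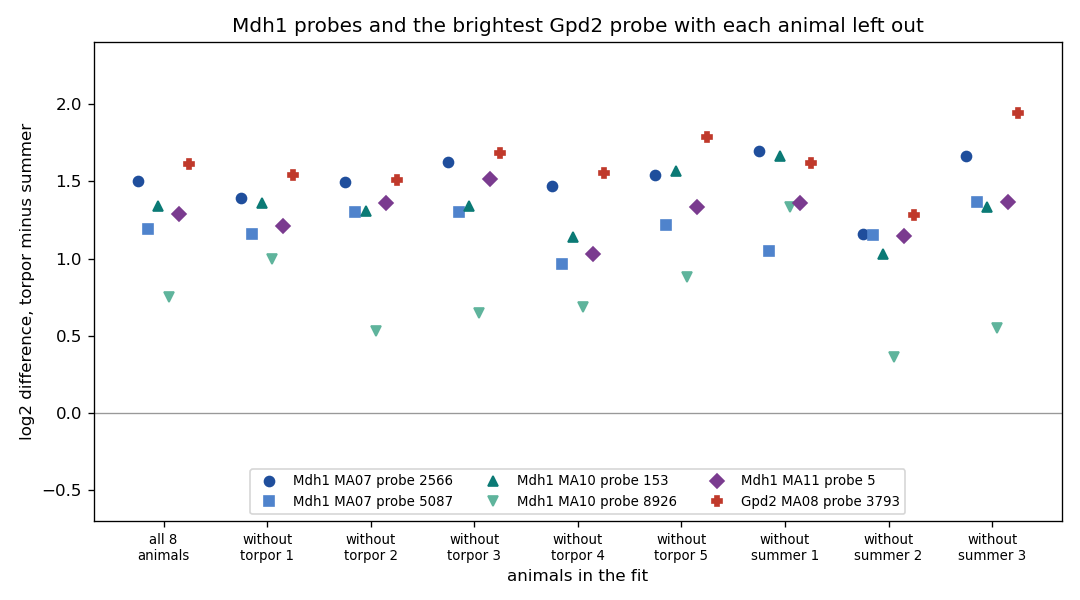
Log2 differences, torpor minus summer, of the 5 Mdh1 probes and Gpd2 probe 3793 are shown on the vertical axis for the fit with all 8 animals and for each fit without 1 animal. All points lie above 0. The lowest is Mdh1 probe 8926 without summer animal 2, at 0.36.

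Mitochondrial carriers were measured for 4 genes, the malate-aspartate shuttle's Slc25a11, Slc25a12 and Slc25a13 and the glutamate carrier Slc25a22. Of their 10 probes 1 passed the threshold, beside 0.309% of all tested probes, and 4 of the 10 had positive differences, with a median of -0.091. Slc25a12 (Aralar), an exchanger of aspartate and glutamate in the inner mitochondrial membrane, rose by its MA08 probe 9294. Its log2 levels were 3.37, 3.14, 2.38, 3.28 and 2.74 in torpor, against 1.61, 0.39 and 0.45 in summer. Every torpid animal lay above every summer animal, as in 4.37% of all tested probes and 10.02% of those at percentile 85 or above. The difference was 2.16 ± 0.33 (SE; limma adjusted p = 0.026). Its other probes, 4920 on MA08 and 2888 on MA11, gave -0.10 and -0.08. The call of probe 9294 was lost without torpid animal 1, 2 or 4 (limma adjusted p = 0.075, 0.078 and 0.066) and without summer animal 2 or 3 (both 0.051). It was also lost with cyclic loess, a floor or the second duplicates. The replicate block, whose number pairs nothing, lost it too, at a difference of 2.14. Slc25a13 (citrin), the second exchanger of this kind, ran from -0.48 to 0.57 over 3 probes, and Slc25a11, the malate and oxoglutarate carrier, from -0.15 to -0.11 over 2. Slc25a22 gave 0.27 and 0.41.

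Among 24 measured genes of the surrounding pathways, taken by their brightest probe, 21 had positive differences, with a median of 0.40, and Slc25a12 was the one that passed, beside 0.309% of all tested probes. Bright probes as a whole leaned to torpor: 63.63% of those at percentile 85 or above had positive differences, with a median of 0.235, and 1.42% of them passed. This set is not matched to the 24 genes, whose brightest probes ran from percentile 36.6 (Me1) to 98.6 (Ldhb). After quantile normalization and cyclic loess 18 and 19 of the 24 genes were positive, with medians of 0.27 and 0.23. With 1 animal left out the count ran from 17 to 22. In the list around cytosolic NADH, Gapdh, Ldha and Ldhb belong to enzymes that use or make it, while Pgk1 and Tpi1 are glycolytic enzymes that do not. All 5 were positive by their brightest probe and none passed. Over all 9 probes of these genes 8 were positive, with a median of 1.06. For Tpi1, at 1.53, summer animals 1 to 3 stood at 2.19, 1.71 and -2.22, and its other probe gave -0.10. The smallest p was that of Ldha, the muscle-type subunit of lactate dehydrogenase, at 1.11 ± 0.28 (SE; limma adjusted p = 0.17). Its log2 levels were 0.29, 0.44, 0.76, 0.57 and 0.37 in torpor, against -0.23, -1.43 and -0.20 in summer. The groups did not overlap, with torpor above, as in 4.37% of all tested probes. For malate, oxaloacetate and glutamate, 10 of 11 measured genes were positive, but 7 and 8 after quantile normalization and cyclic loess, and the smallest p was that of Glud1, glutamate dehydrogenase, at 0.56 (limma adjusted p = 0.37). Over all probes of that list 22 of 31 were positive, with a median of 0.13. Other Glud1 probes reached down to -0.45, and 2 of its 6 were positive. Gpd1l, a relative of Gpd1, gave 0.26, Gpam, which puts the first fatty acid on glycerol 3-phosphate, gave 0.38, and Nnt, the mitochondrial transhydrogenase, gave 0.27 (limma adjusted p = 0.67, 0.70 and 0.76).

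The probes whose log2 values followed a member most closely over the 8 animals were named by Pearson's r, as a description without a test, since the difference between the groups is part of it. For Mdh1 probe 2566 these were Cycs (cytochrome c, r = 0.98), Fndc3a (0.98) and Adgre5 (0.98) among 5815 probes of MA07. For Gpd2 probe 3793 they were Spcs1 (r = 0.99), Npepps (0.98) and again Cycs (0.97) among 6522 probes of MA08. The closest to Mdh2 were Phlda3, Micos13 and TGFB1 (r = 0.94, 0.94 and 0.92), and the closest to Got1 were Cul4b, Ube3a and Cep83 (0.97, 0.95 and 0.92). Got2 was followed by Hypk, Eif3f and Fam117b (0.98, 0.97 and 0.97), and Gpd1 by Rpl7a, Adgrl1 and Ociad2 (0.98, 0.93 and 0.93). Adjusted p by limma was at least 0.43 for these 12 probes. Of those named for Mdh1 and Gpd2, Cycs on MA07 (limma adjusted p = 0.016), Fndc3a (0.036) and Cycs on MA08 (0.026) passed the threshold. Adgre5, Spcs1 and Npepps did not (limma adjusted p = 0.18, 0.12 and 0.11). Over all tested probes 0.309% passed.

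Split RNAs give the error of the measurement itself. Over the member probes with both values, the median absolute log2 difference between duplicates was 0.37 in torpid animal 5, 0.44 in summer animal 1 and 0.52 in summer animal 2, against 0.32, 0.44 and 0.44 over all probes. The largest was 3.28, for Mdh1 probe 153 in summer animal 2.

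Tissue markers were measured in part. Of 8 brown adipocyte markers 5 were measured, and their mean log2 level was 0.08 to 0.69 in torpid animals, against 0.64 to 0.97 in summer animals. These ranges overlapped. By the brightest probe 4 of the 5 had negative differences and 1 a positive one, with a median of -0.58, and none passed the threshold. Ucp1 was not analysed here. Of 5 white adipocyte markers 4 were measured, and all 4 had negative differences by their brightest probe, or 2 of 4 without summer animal 3. Over all 10 probes of these markers 3 were positive, with a median of -0.12. Agt (angiotensinogen) gave -1.996 and Psat1, an enzyme of serine synthesis, -1.58, both by MA10 probes, while the other probes of these genes lay between -0.28 and 0.11. The brightest probes of Lep and Nnat gave -0.09 and -0.29, with overlapping groups. Over the brightest probes of the 4 genes the mean log2 level was 1.69 to 2.37 in torpor, against 2.67 to 3.38 in summer. None of them passed the threshold. The part of these markers in the values above was not tested. For general adipocyte, skeletal muscle, erythroid, immune, endothelial and nerve markers the ranges of the mean level overlapped between the groups.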

How the data were processed

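The authors deposited spot intensity values, 11 columns per membrane. Each column has a median of 1 when empty cells are ranked lowest, and empty cells made up 0.698% to 9.41% of a column. The sources used here do not give the image analysis, background treatment or normalization. For this report the log2 of each value was taken, empty cells were treated as missing and a split RNA was represented by the mean of its duplicates, which leaves 5 torpid and 3 summer animals. Linear models were made per membrane in R 4.3.3 with limma 3.58.1 (lmFit, eBayes; two-sided; torpor minus summer) wherever both groups had at least 2 animals with a value. P-values were adjusted by Benjamini and Hochberg's method over the tested probes of the 4 membranes together, at a threshold of 0.05, and the fit was tested on simulated data. The number of animals, 5 in torpor and 3 in summer, limits the precision. Gene symbols came from the platform annotation, and 2 probes that carry several symbols with a member among them were left out. The brightest probe is that of the highest mean signal percentile on its membrane. Every member probe is described, and of the pathway list those that passed and the smallest p of each group. For each member, the 3 probes of the highest r over the animals were listed. The members, lists and tests were chosen with earlier results of these data known. Alternatives covered scaling, a floor, a filter on dim probes, variance models, the adjustment, duplicates, the replicate block, shared clones and each animal left out. No sequences are printed.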

Additional observations from a re-analysis of the deposited data

Results flagged for a closer look

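A pair of values of torpid animal 4 on MA11 stood apart from the other torpid animals by Dixon's criterion, which flags about 1 in 20 groups by chance. For Got1 probe 3715 its log2 level was 0.12, while the other torpid animals lay between 0.81 and 1.03. For Nnt probe 7203 it was -0.93, while the others lay between -0.03 and 0.23. A total of 31.0 sets of torpid animals were examined.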

How the results depend on the processing

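No member probe passed the threshold with all 8 animals, and 2 did when probes below the 25th percentile were left out, Mdh1 probe 2566 and Gpd2 probe 3793; fewer probes were then tested. With 1 animal left out, 0 to 1 member probes passed. Over all probes the count of 117 became 65 with cyclic loess, 76 with a floor at the 10th percentile, 238 without dim probes, 228 with a trended robust prior, 176 with the first and 38 with the second duplicates. It ran from 17 without torpid animal 2 to 347 without summer animal 1. The cause was not tested.

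The replicate number as a block gave 32 calls and no member probe. Same-numbered animals are different animals whose deviations did not move together (r from -0.063 to 0.052), so that the number pairs nothing. Under this block Gpd2 probe 5210 gave -0.18.

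With the first duplicates the pair shifts were 1.80 for Mdh1 minus Mdh2 and -1.31 for Gpd1 minus Gpd2, and both passed (exact permutation, adjusted p = 0.027). With the second duplicates they were 1.13 and -1.78, and neither passed (exact adjusted p = 0.11 and 0.054). Got1 minus Got2 gave -0.22 with the mean over all probes. With 1 animal left out, the 3 shifts ran from 1.02 to 2.05 for Mdh1 minus Mdh2, from -0.14 to 0.83 for Got1 minus Got2 and from -1.67 to -1.34 for Gpd1 minus Gpd2.

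Several differences near 0 changed sign, none past the threshold. With quantile normalization Gpd1 probe 3224 gave -0.045, Mdh2 probe 764 gave -0.27 and Got1 probe 3715 gave -0.0074. With cyclic loess Gpd1 probe 3224 gave -0.033 and Mdh2 probe 764 gave -0.28. With the first duplicates Gpd2 probe 3807 gave 0.028, Mdh2 probes 764 and 1376 gave -0.14 and 0.080, and Gpd1 probe 1078 gave -0.086, and with the second Gpd1 probe 3224 gave -0.12. With 1 animal left out the ranges were -0.061 to 0.29 for Gpd1 probe 3224, -0.31 to 0.010 for Gpd2 probe 3807, -0.35 to 0.65 for Mdh2 probe 764, -0.28 to 0.29 for Gpd1 probe 1078, -0.44 to 0.56 for Mdh2 probe 1376 and -0.12 to 0.28 for Gpd2 probe 5210. The Slc25a12 call was lost with cyclic loess (1.90, limma adjusted p = 0.067), a floor (2.16, 0.051), the second duplicates (2.16, 0.075) and the replicate block (2.14, 0.077).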
